A study of Homo sapiens with 12 samples.

Results

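ER-phagy receptors are the proteins that mark pieces of the endoplasmic reticulum (ER) for destruction in lysosomes. Their transcripts were followed in RNA-seq counts from 3 mantle cell lymphoma (MCL) cell lines. The 9 genes described here, CCPG1, RETREG1, RETREG2, RETREG3, SEC62, RTN3, TEX264, ATL3 and CALCOCO1, were taken by name from the 63677 genes in the count table. All 9 passed the filter on low counts that left 18674 genes for testing. RETREG1 had few reads outside JVM2, since each JEKO1 and MAVER1 library held fewer than 20 of them.

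JEKO1, JVM2 and MAVER1 were each grown as an untreated control, with ironomycin, with ibrutinib, or with both drugs for 48 h, which gave 12 libraries with 1 library per line and treatment. Ironomycin is a salinomycin derivative that traps iron in lysosomes, and ibrutinib blocks BTK, a kinase of B-cell receptor signalling. Ironomycin was given at 50 nM to JEKO1 and at 250 nM to JVM2 and MAVER1. Ibrutinib was given at 0.5 μM to JEKO1, 1.5 μM to JVM2 and 6.25 μM to MAVER1. Line and ibrutinib dose therefore cannot be told apart, nor can JEKO1 and its ironomycin dose. JVM2 and MAVER1 shared an ironomycin dose. The 3 lines served as the replicates of a treatment (n = 3), and all 3 are established lymphoma lines rather than primary cells.

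ER-phagy receptors sit in, or are tethered to, the ER membrane and carry a short motif that binds ATG8 proteins such as LC3B and GABARAP on the growing autophagosome. RETREG1 (also called FAM134B) and its relatives RETREG2 and RETREG3 bend the membrane through a reticulon-homology domain, the long form of RTN3 fragments ER tubules, ATL3 is a GTPase of ER tubules, and SEC62 is a translocon subunit that also clears excess ER during recovery from stress. TEX264 is a receptor anchored in the membrane by a short segment, CCPG1 is a membrane receptor that also binds the autophagy initiation factor RB1CC1 (FIP200) and is known as a target of the unfolded protein response, and CALCOCO1 is a soluble receptor that reaches the ER through VAPA and VAPB. Antibody-secreting cells of the B lineage are rich in ER, and the unfolded protein response is active in them.

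The promoters of the members are shown because the ironomycin libraries of every line were higher for CCPG1 and RTN3 and lower for TEX264. Such orders were held by 9.72% and 11.1% of all genes tested, and ironomycin alone called none of the 9 members. RefSeq promoter windows of 300 bases (250 before and 50 after a transcript start, build GRCh38.p14) were found for 8 of the 9 members, as 11 windows. CALCOCO1 had none. They were searched on both strands for exact matches to the C/EBP-ATF response element CARE (TGATGNAA), the UPR element UPRE (TGACGTGG), the cyclic AMP element CRE (TGACGTCA), the lysosomal CLEAR-type element (TCACGTGA), the E-box (CACGTG, which lies within the CLEAR-type element) and the ER stress element ERSE. The windows of CCPG1, RTN3 and TEX264 were these, in lower case throughout because none of the searched motifs lies in them.
CCPG1, chr15:55408310-55408609, minus strand: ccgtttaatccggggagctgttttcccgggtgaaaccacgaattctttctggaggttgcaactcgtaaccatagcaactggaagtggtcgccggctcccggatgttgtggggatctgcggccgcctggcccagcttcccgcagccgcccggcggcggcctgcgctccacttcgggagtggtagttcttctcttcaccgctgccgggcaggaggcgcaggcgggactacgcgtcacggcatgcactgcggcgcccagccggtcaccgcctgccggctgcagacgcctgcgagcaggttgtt
RTN3, chr11:63681200-63681499, plus strand: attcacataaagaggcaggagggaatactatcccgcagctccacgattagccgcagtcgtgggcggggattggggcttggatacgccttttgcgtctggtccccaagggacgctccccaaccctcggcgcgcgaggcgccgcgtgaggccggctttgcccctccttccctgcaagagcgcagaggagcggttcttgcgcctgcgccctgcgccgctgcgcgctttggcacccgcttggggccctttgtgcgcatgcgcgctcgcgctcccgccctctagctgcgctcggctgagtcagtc
TEX264, chr3:51671002-51671301, plus strand: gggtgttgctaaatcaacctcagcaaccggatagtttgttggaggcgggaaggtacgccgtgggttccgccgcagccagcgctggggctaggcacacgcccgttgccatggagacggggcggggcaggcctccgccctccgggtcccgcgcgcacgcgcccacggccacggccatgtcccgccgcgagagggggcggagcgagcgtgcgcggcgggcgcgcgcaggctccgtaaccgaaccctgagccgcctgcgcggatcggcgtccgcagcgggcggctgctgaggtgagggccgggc

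A match was found in the windows of RETREG2 and SEC62, shown here with the matching bases in capitals.
RETREG2, chr2:219178025-219178324, plus strand: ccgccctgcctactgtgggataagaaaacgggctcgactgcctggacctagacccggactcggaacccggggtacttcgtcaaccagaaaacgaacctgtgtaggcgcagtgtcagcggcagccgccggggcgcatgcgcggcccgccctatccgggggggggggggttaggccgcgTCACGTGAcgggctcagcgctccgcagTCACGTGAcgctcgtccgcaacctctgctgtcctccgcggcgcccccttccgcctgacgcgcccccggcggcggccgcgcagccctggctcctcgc
SEC62, chr3:169966557-169966856, plus strand: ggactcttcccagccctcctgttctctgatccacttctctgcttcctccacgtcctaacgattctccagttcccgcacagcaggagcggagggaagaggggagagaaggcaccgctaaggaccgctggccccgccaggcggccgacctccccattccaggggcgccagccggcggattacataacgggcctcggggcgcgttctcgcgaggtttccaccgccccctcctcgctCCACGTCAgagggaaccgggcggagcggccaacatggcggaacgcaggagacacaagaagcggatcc

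RETREG2 held the CLEAR-type element at 2 places, starting at positions -73 and -46 relative to the transcript start, and a CLEAR-type element was found in 0.98% of 35116 promoter windows. SEC62 held UPRE on the opposite strand, which 0.729% of windows held. CARE was found in 3.62%, CRE in 1.85%, an E-box in 7.26% and ERSE in 0.0769% of windows. These are matches of letters in a short window only.

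Library totals ran from 35448523 to 38630809 counted reads. B-cell markers were present in every line, with at least 9734 reads of MS4A1, which encodes CD20, in each library, and CD22 was the lowest at 384 to 1066 in JEKO1 and 671 to 2122 in MAVER1, against 11104 to 13106 in JVM2. CCND1, the cyclin that marks MCL, had at least 8025 reads, while JVM2 had 0 reads of SOX11 and 1 to 2 of CD5, 2 other MCL markers. HBB, an erythroid marker, had 0 reads and KRT19 at most 2, T-cell markers had at most 84, and EPCAM had 52 to 537 in JEKO1 and MAVER1 and CSF1R 129 to 181 in JVM2. The share of reads on mitochondrial genes was lower in both ironomycin libraries of each line than in the other libraries of that line. It ranged from 0.883% to 1.89% with ironomycin and from 1.76% to 2.17% without. TMM scaling factors were higher in the ironomycin libraries of each line, and the JEKO1 library with both drugs had the lowest total and the highest factor (1.19). The part of the mitochondrial share in the results was not tested. Fits under library totals in place of TMM, and without the JEKO1 library with both drugs, are given below.

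Per kilobase of exon, RTN3, SEC62 and RETREG2 were the most abundant receptor transcripts in the control libraries and RETREG1 and CCPG1 the least. RTN3 stood at 15.3 CPM per kb (TMM-scaled counts divided by exon length in kilobases) in JEKO1, 17.9 in JVM2 and 20.9 in MAVER1. RETREG2 stood at 12.3, 17.6 and 14.9, and SEC62 at 12.04, 14.7 and 15.04, so their ranges over lines overlapped each other. RTN3 was above both in every line, though narrowly in JVM2. The next genes were RETREG3 (5.21, 12.1 and 12.4), ATL3 (8.11, 7.996 and 7.33) and TEX264 (4.77, 11.6 and 7.63), whose ranges also overlapped. CALCOCO1 (2.40, 6.17 and 2.28) lay below these 3 in every line, and CCPG1 (0.103, 0.718 and 0.274) lay below CALCOCO1 in every line. The rank of CCPG1 is that of its counted reads. CCPG1 shares exons with a read-through gene, and its level is understated if reads shared between genes were not counted. RETREG1 was at 2.56 CPM per kb in JVM2, above CCPG1 there, and at 0.0055 in JEKO1 and 0.0847 in MAVER1, where its reads are too few to rank.

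**Figure D1:**
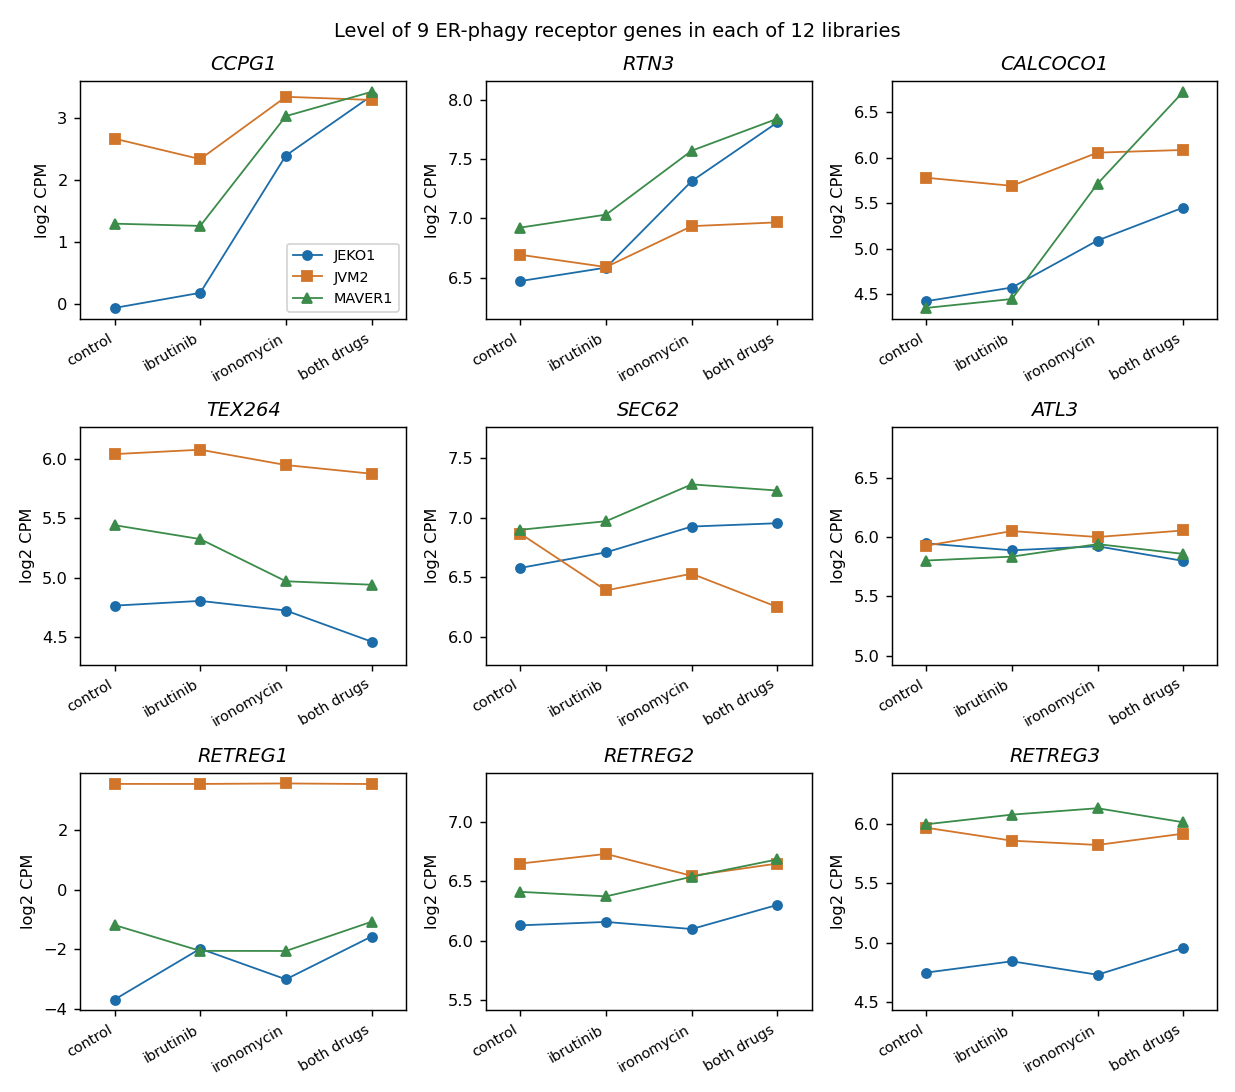
Level of each receptor gene (vertical axis, log2 CPM, scaled per panel) in the 12 libraries, by treatment (horizontal axis), with a coloured symbol and joining line for each cell line; each point is 1 library. CCPG1 starts 2.73 log2 units apart between lines in the controls and ends 0.131 apart with both drugs, while ATL3 stays between 5.80 and 6.05 and RETREG1 is high in JVM2 alone.

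With ironomycin, 3 receptors were higher and 1 was lower in every line. CCPG1, RTN3 and CALCOCO1 had both ironomycin libraries above both libraries without it in 3 of 3 lines, a pattern held by 9.72% of all genes tested. TEX264 had both ironomycin libraries below the others in 3 of 3 lines, as did 11.1% of all genes. None of the other 5 members kept such an order in all 3 lines.

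CCPG1 had the largest fitted difference with both drugs of the 9 receptors. In JEKO1 it had 36 reads in the control, 43 with ibrutinib, 218 with ironomycin and 432 with both drugs. In JVM2 the same libraries held 221, 179, 368 and 362 reads, and in MAVER1 87, 87, 303 and 405. On the log2 CPM scale the control levels were -0.063 in JEKO1, 2.67 in JVM2 and 1.30 in MAVER1, and the levels with both drugs were 3.36, 3.29 and 3.42. The lines thus differed by 2.73 log2 units without treatment and by 0.131 with both drugs, with ironomycin alone (0.948) and ibrutinib alone (2.16) in between. With both drugs against control the fitted log2 difference was 2.02 (SE 0.416, edgeR adjusted p = 0.00729), a 4.07-fold rise, and it was 10.7-fold in JEKO1 and 1.54-fold in JVM2 by the ratio of single libraries. DNAAF4-CCPG1, the read-through transcript that shares CCPG1 exons, was listed with 0 reads in all 12 libraries. The counting tool is not given, so reads that fit both genes may have been left out of the CCPG1 counts. PIGB, a neighbouring gene, had 109 to 151 reads in JEKO1, 441 to 524 in JVM2 and 271 to 337 in MAVER1, a narrower range in each line than that of CCPG1 relative to its control. PIGBOS1, another neighbour, had 179 to 258 reads in JEKO1, 165 to 205 in JVM2 and 230 to 252 in MAVER1. DNAAF4 had at most 6 reads in a library. In JEKO1, PIGBOS1 and DNAAF4 were highest with both drugs. Counts of a culture cannot tell more transcript per cell from more cells with the transcript.

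RTN3, whose long form is the receptor, was likewise higher in each ironomycin library of a line, with many more counted reads than CCPG1. Reads were counted over the whole gene, so its long form could not be told from the short ones. In JEKO1 it stood at 6.47 log2 CPM in the control, 6.58 with ibrutinib, 7.31 with ironomycin and 7.81 with both drugs. MAVER1 gave 6.92, 7.03, 7.57 and 7.84 in that order, and JVM2 gave 6.69, 6.59, 6.93 and 6.97. The lowest ironomycin library of RTN3 over all lines, 6.93 in JVM2, was below the MAVER1 library with ibrutinib, so the groups overlapped between lines though not within them. With both drugs against control RTN3 rose by 0.85 on the log2 scale (SE 0.159, 1.80-fold, edgeR adjusted p = 0.00527).

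CALCOCO1, the soluble receptor, showed its highest library in MAVER1. There it went from 4.35 log2 CPM in the control and 4.45 with ibrutinib to 5.71 with ironomycin and 6.72 with both drugs, or from 735 to 4003 reads between control and both drugs. In JEKO1 the levels in the same order were 4.42, 4.57, 5.09 and 5.45. In JVM2, which had the highest control, they were 5.78, 5.69, 6.05 and 6.08. With both drugs against control it rose by 1.28 on the log2 scale (SE 0.317, 2.43-fold, edgeR adjusted p = 0.0148). Without MAVER1 the difference was 0.67 and was not called (adjusted p = 0.0935).

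TEX264 moved the other way and by little. Its levels in the order control, ibrutinib, ironomycin and both drugs were 4.76, 4.80, 4.72 and 4.46 log2 CPM in JEKO1, 6.04, 6.08, 5.95 and 5.88 in JVM2, and 5.44, 5.32, 4.97 and 4.94 in MAVER1. With both drugs against control it fell by 0.33 on the log2 scale (SE 0.096, edgeR adjusted p = 0.0289). This call was lost when library totals replaced TMM scaling (adjusted p = 0.143) or when the JEKO1 library with both drugs was left out (adjusted p = 0.102), with the direction kept.

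The remaining receptors gave no call in any comparison between treatments with TMM scaling and all 12 libraries. SEC62, the translocon subunit, had 3799 to 5238 reads in JEKO1, 2820 to 4086 in JVM2 and 4315 to 5790 in MAVER1. Its log2 ratio of both drugs to control was 0.377 in JEKO1, 0.331 in MAVER1 and -0.618 in JVM2, so the lines lay on either side of 0. Over the 3 lines the fitted difference was 0.020 (95% interval -0.334 to 0.374). Without JVM2 it was 0.319, with an edgeR adjusted p of 0.0209.

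ATL3 was the steadiest receptor, with 5.80 to 5.95 log2 CPM in JEKO1, 5.93 to 6.05 in JVM2 and 5.80 to 5.94 in MAVER1. Its difference of both drugs from control was 0.012 (95% interval -0.160 to 0.183), which leaves room for a change of at most 1.14-fold upward at that confidence. RETREG2 stood at 6.10 to 6.30 log2 CPM in JEKO1, 6.54 to 6.73 in JVM2 and 6.37 to 6.68 in MAVER1, with a difference of 0.150 (-0.042 to 0.341). Under library totals RETREG2 was called at 0.274 (edgeR adjusted p = 0.0395). RETREG3 stood at 4.73 to 4.96, 5.82 to 5.97 and 5.996 to 6.13, with a difference of 0.058 (-0.134 to 0.250). For RETREG3 the ranges of JEKO1 and the other lines did not meet.

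RETREG1, a receptor of ER sheets, differed by cell line. Only JVM2 had enough reads to follow with treatment, and the RETREG1 level there was steady. The 4 JVM2 libraries held 409, 430, 417 and 432 reads (control, ironomycin, ibrutinib, both drugs), or 3.55 to 3.57 log2 CPM. JEKO1 libraries held 1, 3, 8 and 12 reads and MAVER1 libraries 14, 7, 7 and 16. These are too few to follow with treatment, and the interval for both drugs against control was wide, from -0.526 to 1.21.

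Set out by comparison, both drugs against control called 3 of the 9 receptors higher and 1 lower, where 14.2% of all genes were called higher and 14.0% lower. Under library totals the split over all genes was 3934 higher and 1563 lower, beside 2655 and 2613 with TMM, and the median log2 difference of all genes moved from 0.051 to 0.176. Under library totals 4 receptors were called higher and 0 lower, since RETREG2 gained a call and TEX264 lost its call. The median of the 9 receptors was 0.150. Without JEKO1 or without MAVER1 none of the 4 receptors was called in this comparison (edgeR adjusted p from 0.0861 to 0.205), with 37 and 22 genes called in all. A fit of the control libraries and those with both drugs alone also called none of the 4 (adjusted p from 0.0777 to 0.146), and 5 genes in all. Without JVM2 all 4 were called, and SEC62 with them, among 6103 of 17985 genes, and without the JEKO1 library with both drugs CCPG1, RTN3 and CALCOCO1 were (adjusted p from 0.0249 to 0.0386).

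Against ibrutinib, both drugs called the same 4 receptors, with log2 differences of 2.15 for CCPG1 (SE 0.417, edgeR adjusted p = 0.00813), 0.82 for RTN3 (SE 0.159, adjusted p = 0.00815), 1.24 for CALCOCO1 (SE 0.316, adjusted p = 0.0197) and -0.31 for TEX264 (SE 0.095, adjusted p = 0.0400). Here 11.8% of all genes were called higher and 11.5% lower (2212 and 2147, and 3110 and 1268 under library totals). The libraries with both drugs are shared with the comparison against control, so these calls are not separate evidence. Without the JEKO1 library with both drugs, CALCOCO1 (adjusted p = 0.0529) and TEX264 (adjusted p = 0.139) were no longer called.

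Ironomycin alone against control called none of the 9 receptors, and 0.584% of all genes. At an unadjusted p under 0.05 it gave 3 receptors and 4198 of the 18674 genes, and DESeq2 called 2 receptors, CCPG1 and RTN3, and 2308 genes. The edgeR log2 differences were 1.50 for CCPG1 (SE 0.410, adjusted p = 0.0872), 0.57 for RTN3 (SE 0.158, adjusted p = 0.0894) and 0.73 for CALCOCO1 (SE 0.310, adjusted p = 0.200). The ratios were above 1 in 3 of 3 lines for each of these, and the share of all genes with such ratios was not computed. Without JVM2, 3 receptors were called, namely CCPG1, RTN3 and SEC62, among 1636 of 17985 genes.

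Ibrutinib alone called none of the receptors and 0% of all genes. At an unadjusted p under 0.05 it gave 0 of the 9 receptors and 680 of all genes, and DESeq2 called 27 genes and no receptor. The log2 differences of the 9 ran from -0.129 to 0.039, and for RTN3 the 95% interval was -0.318 to 0.379. Adding ibrutinib to ironomycin also called no receptor and 0% of genes, with 1970 genes at an unadjusted p under 0.05 and 166 by DESeq2. The estimates were 0.529 for CCPG1 (-0.320 to 1.38), 0.284 for RTN3 (-0.063 to 0.631) and 0.551 for CALCOCO1 (-0.127 to 1.23). Without the JEKO1 library with both drugs CCPG1 stood at -0.015 and RTN3 at 0.078. The single libraries were higher with both drugs than with ironomycin in 3 of 3 lines for RTN3, CALCOCO1 and RETREG2, in 2 of 3 for CCPG1 and in 0 of 3 for TEX264. In JVM2 the log2 ratios were only 0.032 for RTN3 and 0.029 for CALCOCO1. The share of all genes with such an order was not computed. A test of whether both drugs departed from the sum of the single differences called no receptor and 0% of genes, with 367 genes at an unadjusted p under 0.05 and 0 by DESeq2. For CCPG1 that departure was 0.659 (-0.598 to 1.92).

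Averaged over the libraries with and without ibrutinib, ironomycin was compared over 6 libraries against 6, which come from 3 lines. CCPG1 rose by 1.82 on the log2 scale (SE 0.295, 3.54-fold with a 95% interval of 2.25 to 5.56, edgeR adjusted p = 0.00199). RTN3 rose by 0.69 (SE 0.112, 1.62-fold, adjusted p = 0.00201) and CALCOCO1 by 0.98 (SE 0.223, 1.98-fold, adjusted p = 0.00785). TEX264 fell by 0.25 (SE 0.068, adjusted p = 0.0156), with an adjusted p of 0.0812 under library totals. With each line reduced to 1 difference (limma, n = 3 lines), none of the 9 receptors and 0 of the 18674 genes were called, with 4308 genes at an unadjusted p under 0.05. The log2 differences were then 1.86 for CCPG1 (SE 0.403, limma adjusted p = 0.175), 0.69 for RTN3 (SE 0.175, adjusted p = 0.180), 0.98 for CALCOCO1 (SE 0.313, adjusted p = 0.191) and -0.26 for TEX264 (SE 0.119, adjusted p = 0.269). The edgeR calls of this comparison, those of the gene lists included, therefore rest on counting the libraries of a line separately. Over all genes 17.1% were called higher and 16.3% lower (3186 and 3044, and 4419 and 1949 under library totals), and the 9 receptors had a median of 0.100 beside 0.043 for all genes. Without MAVER1 none of the 4 was called (edgeR adjusted p from 0.0531 to 0.174), and without JEKO1 CCPG1 and RTN3 were (0.0316 and 0.0374). The estimate for CALCOCO1 was 0.55 without MAVER1. Without the JEKO1 library with both drugs all 4 were called (adjusted p from 0.00368 to 0.0376).

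**Figure D2:**
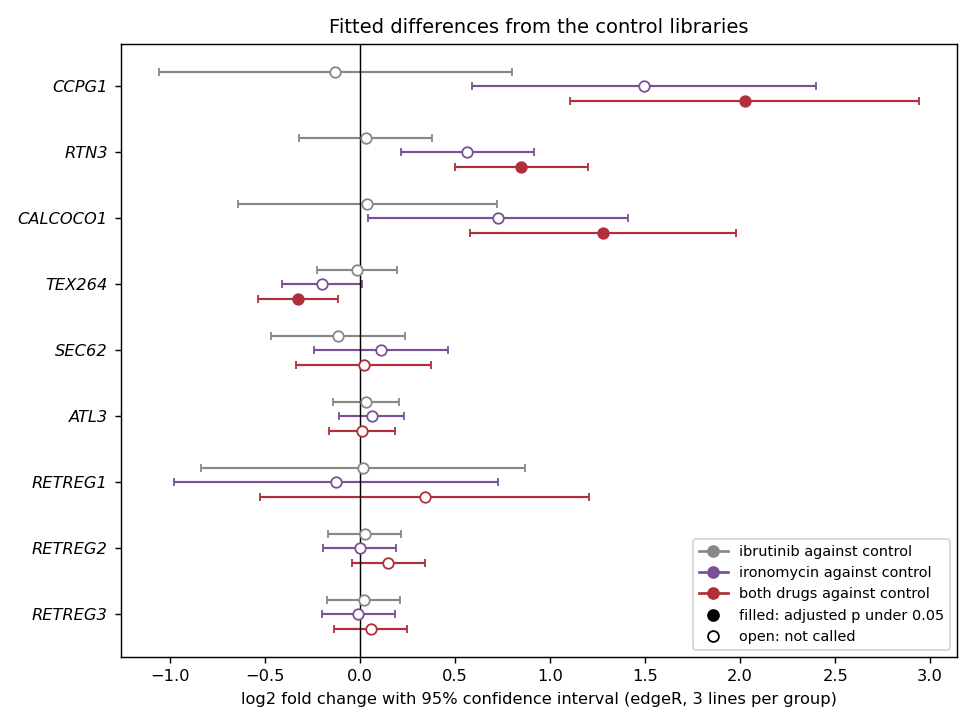
Fitted log2 fold change (horizontal axis) of each receptor gene (vertical axis) against control for ibrutinib, ironomycin and both drugs, with 95% confidence intervals from edgeR and 3 lines per group; filled symbols passed an adjusted p under 0.05. The filled symbols all belong to both drugs together, at 2.02 for CCPG1, 0.85 for RTN3, 1.28 for CALCOCO1 and -0.33 for TEX264.

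The size of the ironomycin difference varied with the line for 3 receptors. The test let each line have its own ironomycin coefficient, set 2 ironomycin libraries of a line against its 2 others, and called 9.38% of all genes. CCPG1 differed between lines (edgeR adjusted p = 0.0115), at 2.91 in JEKO1 (SE 0.264), 1.97 in MAVER1 (SE 0.236) and 0.83 in JVM2 (SE 0.217). RTN3 differed in the same order (adjusted p = 0.0308), at 1.04, 0.73 and 0.31, with SEs of 0.106 to 0.107. CALCOCO1 had another order (adjusted p = 0.0106), with 1.85 in MAVER1 (SE 0.180), 0.77 in JEKO1 (SE 0.177) and 0.35 in JVM2 (SE 0.172).

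For SEC62 the line differences, 0.29 in JEKO1, 0.32 in MAVER1 and -0.25 in JVM2, gave an adjusted p of 0.105 in edgeR. TEX264 was lower in each line, by -0.19 in JEKO1, -0.15 in JVM2 and -0.43 in MAVER1 (adjusted p = 0.261 for a difference between them). Each estimate rests on 4 libraries of 1 line at the line's own doses. The CCPG1 call was lost without JVM2 (adjusted p = 0.127), the CALCOCO1 call without MAVER1 (0.255) and the RTN3 call without any line (0.0614 to 0.176).

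**Figure D3:**
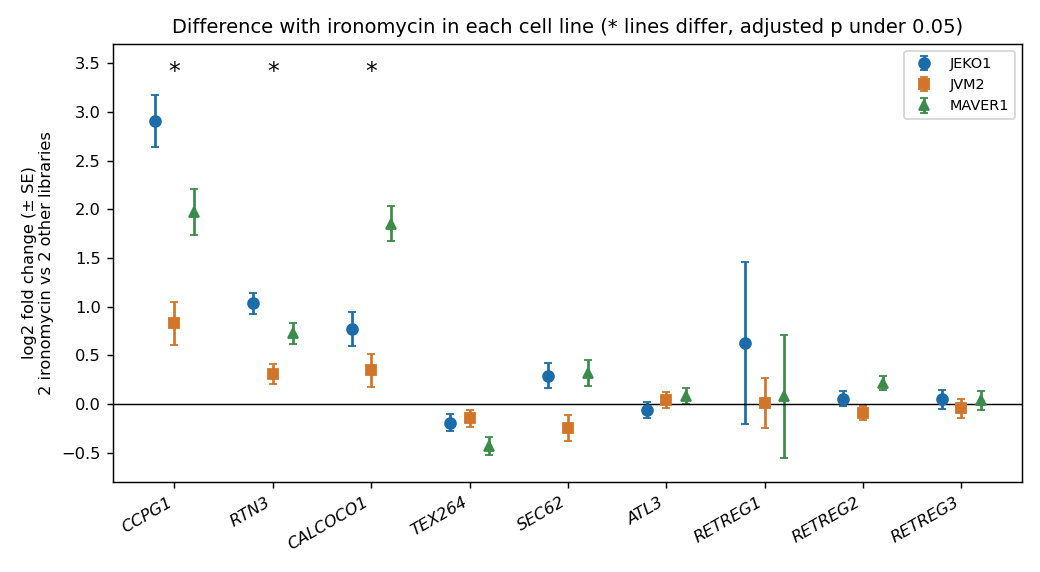
Log2 fold change with ironomycin (vertical axis, ± SE) of each receptor gene (horizontal axis) in JEKO1, JVM2 and MAVER1, each from 2 ironomycin libraries against 2 others; a star marks genes whose difference varied between lines at an adjusted p under 0.05. JVM2 is the lowest of the lines for CCPG1, RTN3 and CALCOCO1, and MAVER1 is the highest for CALCOCO1.

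Across the 12 libraries, with each line's mean taken off, CCPG1 and RTN3 varied together most closely of the members (Pearson r = 0.993). CALCOCO1 correlated with CCPG1 at 0.825 and with RTN3 at 0.841, and TEX264 ran against CALCOCO1 at -0.906. These values describe libraries that share the 4 treatments and, within a line, the culture. Among 11212 genes compared, the 5 most like CCPG1 were DDIT3 (0.994), RTN3 (0.993), PLPP5 (0.992), P2RX7 (0.990) and CCDC18-AS1 (0.989). DDIT3 encodes CHOP, a transcription factor of ER stress. Those most like RTN3 were N4BP2L1 (0.994), OGT (0.994), CCPG1, PLPP5 (0.990) and CBX7 (0.990), where OGT adds O-GlcNAc to proteins. For CALCOCO1 they included PBXIP1 (0.991), the ER membrane protein gene WFS1 (0.988), ZNF333 (0.986) and KMT2C (0.983), and for TEX264 SSU72 (0.990), MON1A (0.988), IFRD2 (0.985), CCDC86 (0.984) and DNAJB6 (0.984).

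The genes that work with the receptors split in direction. Of 23 partners and regulators of ER-phagy, 8 rose and 4 fell with ironomycin averaged over ibrutinib, where 17.1% of all genes were called higher and 16.3% lower, and the median was 0.002 beside 0.043 for all genes. UFM1, the ubiquitin-like modifier of ER-bound ribosomes, rose by 0.51 on the log2 scale (SE 0.072, edgeR adjusted p = 0.00133). CDK5RAP3 (0.56), which belongs to the UFM1 pathway, rose too, as did SEC63 (0.39), the partner of SEC62 at the translocon, SEC61A1 (0.71), the translocon channel, and CANX (0.47), the chaperone that serves as a co-receptor with RETREG1 (adjusted p from 0.00495 to 0.00934). The genes that fell, picked out here after their values were seen, were ARL6IP1 (-0.37) and ARL6IP5 (-0.36), which shape ER membranes, CSNK2A1 (-0.20), a catalytic subunit of casein kinase 2, and VAPA (-0.18), the ER anchor of CALCOCO1. With both drugs against control 5 of the 23 rose and 5 fell, where 14.2% of all genes were called higher and 14.0% lower.

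On the autophagosome side, 6 of 11 tested genes of the ATG8 family and autophagy initiation rose with ironomycin averaged over ibrutinib and none fell, beside 17.1% of all genes higher and 16.3% lower, with a median of 0.211 beside 0.043. MAP1LC3B, which encodes the LC3B that receptors bind, rose by 0.60 on the log2 scale (SE 0.104, edgeR adjusted p = 0.00251). ULK1, the initiating kinase, rose by 0.61 (SE 0.133), its partner ATG13 by 0.36 (SE 0.065), RB1CC1, the binding partner of CCPG1, by 0.32 (SE 0.086) and WIPI2 by 0.17 (SE 0.052). ATG16L1 stood at -0.17 with an adjusted p of 0.0588. The sixth gene, GABARAPL1, is a low one outside the rule for naming. The other tested genes of the ATG8 family, GABARAP among them, were not called, so most of the risers were initiation genes. MAP1LC3B may share reads with its near copy MAP1LC3B2, and 2 of the 13 listed genes did not pass the filter.

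Of 8 tested receptors for other cargo, 3 rose and 1 fell in the same comparison, where 17.1% of all genes were higher and 16.3% lower, with a median of 0.266 beside 0.043 for all genes. SQSTM1, the p62 receptor, rose by 0.55 (SE 0.103, edgeR adjusted p = 0.00327) and OPTN, a receptor for damaged mitochondria, by 0.72 (SE 0.151, adjusted p = 0.00568). FUNDC1, a receptor on mitochondria, fell by 0.33 (SE 0.082, adjusted p = 0.0118). STBD1, a receptor for glycogen with few reads, was the other riser. NBR1 (0.26), TOLLIP (0.27) and BNIP3L (0.23) were not called.

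Of the 7 paralogs of members, CALCOCO2 (0.33, SE 0.106, edgeR adjusted p = 0.0352) rose and ATL2 (-0.25, SE 0.067, adjusted p = 0.0155) fell, with a median of 0.061 beside 0.043 for all genes, of which 17.1% were higher and 16.3% lower. ATL3 and ATL2 thus gave a call for ATL2 alone, which is no test of a difference between them. RTN4, the abundant reticulon of the ER, stood at 0.11 (SE 0.077), beside the rise of RTN3.

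Among 6 tested transcription factors of ER stress and lysosome genes, 3 rose and none fell, beside the same 17.1% and 16.3% of all genes, with a median of 0.270 beside 0.043. DDIT3 rose by 1.70 on the log2 scale (SE 0.230, edgeR adjusted p = 0.00114), ATF4 by 0.35 (SE 0.093, adjusted p = 0.016) and ATF6 by 0.19 (SE 0.055, adjusted p = 0.0219). XBP1 stood at 0.50 (SE 0.237, adjusted p = 0.132), TFE3 at 0.13 and TFEB at -0.034, both factors of lysosome genes.

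**Figure D4:**
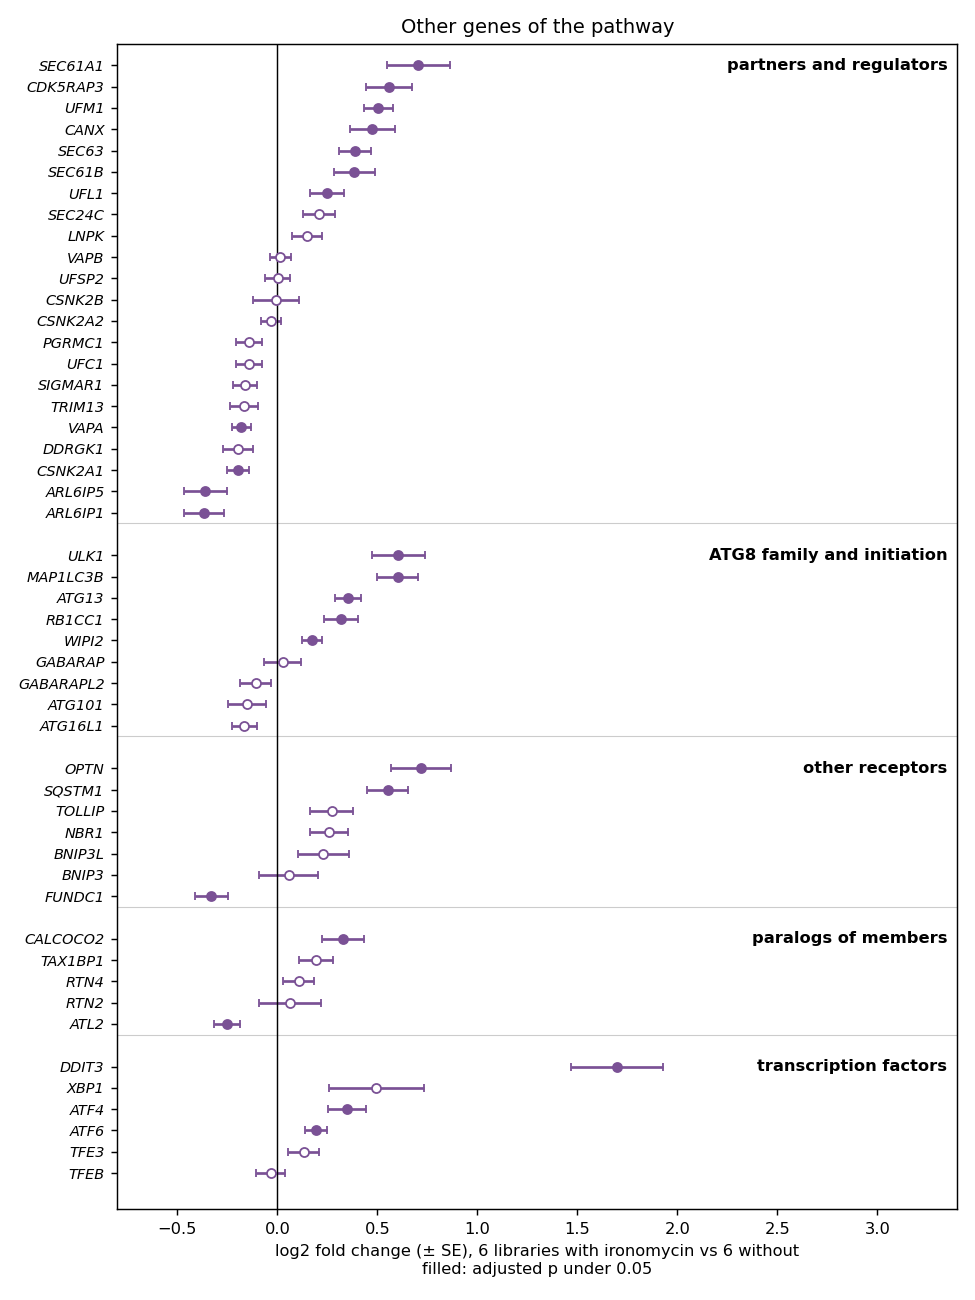
Log2 fold change (horizontal axis, ± SE) of other genes of the pathway that averaged 1 log2 CPM or more (vertical axis), 6 libraries with ironomycin against 6 without, grouped by list, with 1 gene left out; filled symbols passed an adjusted p under 0.05. DDIT3 lies farthest to the right at 1.70, and the partners of the receptors spread on both sides of 0, from 0.71 for SEC61A1 to -0.37 for ARL6IP1.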

How the data were processed

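The deposited file holds whole-number counts per Ensembl gene that the authors did not normalize, from stranded paired-end libraries of polyadenylated RNA. The submitters' processing notes name STAR, DESeq2 and GRCh37; the counting tool, annotation and strand setting are not given in the sources used here. Symbols came from a table of Ensembl names, which matched 39699 of 63677 genes. Exon lengths were merged exons of a newer annotation and give CPM per kb only.

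A quasi-likelihood model in edgeR 4.0.16 (R 4.3.3) was fitted to the 12 libraries together, with terms for treatment and line, after TMM scaling and filterByExpr. P-values were adjusted by Benjamini-Hochberg across 18674 genes, and a gene was called at an adjusted p under 0.05. Plotted log2 CPM values used a prior count of 2. The line was the block because libraries of a number share a cell line. Deviations from treatment means correlated at 0.926 to 0.976 within a line (18 pairs) and at -0.684 to -0.127 between other lines and treatments (36 pairs). The means are taken over the same lines, which makes correlations between lines negative on average. These values are thus a description and no test of the block. The libraries are not stated to come from separate cultures of a line, so p-values of treatment measure the spread between these libraries with line means removed, and the test between lines rests on the 2 against 2 libraries of each line. The tests were also run on simulated counts, drawn independently for each library. Those counts held no effect shared within a culture, so that run cannot show how such an effect would change the calls. DESeq2 1.42.0, other scalings, no filter, a fold change minimum of 1 log2 and leaving out each line were alternatives, as was the fit without the JEKO1 library with both drugs, and limma 3.58.1 on 1 difference per line, both added after the data were seen. All 9 members were named, and up to 6 genes a list, those with the smallest adjusted p that averaged 1 log2 CPM or more, and the 5 genes most alike per called member. The members and lists were chosen with earlier results of these data known. NCOA4 had 0 reads under the identifier its name matched and is not described, and a few genes are not reported here. Promoters are RefSeq's.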

Additional observations from a re-analysis of the deposited data

Results flagged for a closer look

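The ironomycin difference varied between the cell lines for 3 receptors by the edgeR test with a coefficient per line. The adjusted p was 0.0115 for CCPG1, 0.0308 for RTN3 and 0.0106 for CALCOCO1, and 9.38% of all genes passed this test. CCPG1 and RTN3 changed most in JEKO1, which received the lowest ironomycin dose, and CALCOCO1 changed most in MAVER1. JEKO1 and its ironomycin dose cannot be told apart, nor can line and ibrutinib dose. JVM2 and MAVER1 shared an ironomycin dose. Their ironomycin differences, in that order, were 0.83 and 1.97 for CCPG1, 0.31 and 0.73 for RTN3, and 0.35 and 1.85 for CALCOCO1. The cause of the variation between lines was not tested.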

How the results depend on the processing

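With each line left out in turn, the number of receptors called ran from 0 to 3 for ironomycin against control, 0 to 5 for both drugs against control, 0 to 4 against ibrutinib, 0 to 5 averaged over ibrutinib, and 1 to 2 for the difference between lines. The fit with no replicate block (no paired lines) called 0 receptors for both drugs against control, both drugs against ibrutinib and the averaged comparison. A fit of the compared groups alone called 0 in the first pair of these. A minimum log2 fold change of 1 left 2, 2 and 1. With 1 difference per line (limma), the averaged comparison called 0. Without the JEKO1 library with both drugs, 2 were called against ibrutinib. For ironomycin against control, no filter gave 1 and DESeq2 2.

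Values that changed sign were uncalled where they did so. With a line left out, the log2 differences for both drugs against control ran from -0.019 to 0.08 for RETREG3, -0.156 to 0.319 for SEC62 and -0.081 to 0.091 for ATL3; for ibrutinib against control from -0.221 to 0.069 for CCPG1, -0.006 to 0.108 for RTN3, -0.045 to 0.04 for TEX264 and -0.019 to 0.127 for CALCOCO1; and in the averaged comparison from -0.021 to 0.109 for RETREG2, -0.005 to 0.015 for RETREG3 and -0.017 to 0.059 for ATL3. For both drugs against control, ATL3 was -0.007 with DESeq2-type size factors, -0.009 with no filter, -0.008 with DESeq2 and -0.012 with the compared groups alone, SEC62 was 0 with no filter and -0.088 without the JEKO1 library with both drugs, and RETREG3 -0.016 without it. For ibrutinib, TEX264 was 0.006 under library totals. For both drugs against ironomycin, CCPG1 was -0.015 without the JEKO1 library with both drugs. In the averaged comparison RETREG3 was -0.001 with DESeq2-type size factors and with DESeq2, -0.006 with no filter and -0.026 without that library, and RETREG1 -0.001 without it. The cause was not tested.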

Other observations

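Of the receptors that rose, the range over lines narrowed most for CCPG1, narrowed less for CALCOCO1 and widened for RTN3. With ironomycin alone it was 0.948 log2 units for CCPG1, 0.635 for RTN3 and 0.966 for CALCOCO1. Between the controls and the libraries with both drugs, the range over lines went from 2.73 to 0.131 log2 units for CCPG1, from 0.449 to 0.872 for RTN3 and from 1.43 to 1.27 for CALCOCO1. These ranges rest on 1 library per line and treatment and were not tested.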
